A study of Mus musculus with 4 samples.

Results

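Ribosomal protein genes were examined in the dentate gyrus (DG) of mice given repeated electroconvulsive seizures (ECS) or the selective serotonin reuptake inhibitor (SSRI) fluoxetine. A gene was taken as cytosolic if its symbol began with Rplp, or with Rpl or Rps and a digit (the Rps6k kinases excepted), and as mitochondrial if it began with Mrpl or Mrps. Probe sets were used only if they list a single gene symbol and their signal averaged 50 or more across the 4 arrays, and the brightest probe set stood for each gene. This gave 119 ribosomal protein genes of 7935 genes measured: 45 cytosolic genes (24 of the large subunit, 21 of the small subunit) and 74 mitochondrial genes (47 large, 27 small). The symbols alone had given 48 cytosolic genes, and the 3 that fell below the signal limit were Rpl3l, Rpl39l and Rps15a-ps6, with mean signals of 10.1, 14.9 and 5.15. All 74 mitochondrial genes passed.

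Cells hold 2 kinds of ribosome. Cytosolic ribosomes read the messages of nuclear genes, and many of their own protein messages begin with a terminal oligopyrimidine (TOP) tract, a run of C and T at the first transcribed base through which mTOR signalling adjusts their translation. Mitochondrial ribosomes are built from nuclear-encoded Mrpl and Mrps proteins and mitochondrial rRNA, and make the few respiratory chain subunits encoded in the mitochondrial genome. In neurons, ribosomal protein messages are abundant in the cell body and are also carried into axons and dendrites.

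The 4 arrays came from sham, ECS, vehicle and fluoxetine groups of male C57BL/6 mice (of the J or N substrain, per the methods of the study) obtained at 8 weeks of age, with all RNA of a group pooled on 1 array. ECS mice had 11 bilateral sessions under isoflurane, 4 per week, and sham mice had the same handling and anaesthesia without current; the labels place collection 6 h after the last session, whereas the methods of the study give a later time. Fluoxetine was taken for 28 days at 22 mg/kg/day in drinking water that also held saccharin, while the vehicle group is labelled as given water, so fluoxetine and saccharin cannot be told apart. Fluoxetine DG was chosen from mice whose mossy fiber synapses showed low frequency facilitation, so that pool was selected on a physiological outcome and the vehicle pool was not. With 1 pool per group there is no replicate error and no test of any difference; the only measured yardstick is the difference between the sham and vehicle pools, which also carries their different handling. Values are log2 ratios of treated over control signal, centred on the median ratio over 13422 probe sets past the signal limit. The medians subtracted were -0.10 for ECS over sham, 0.12 for fluoxetine over vehicle and -0.50 for sham over vehicle, so the signals printed here run higher on the vehicle and fluoxetine arrays for most genes.

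The sequences at the annotated start sites of the 2 classes were compared. RefSeq promoters (GRCm38.p6, 250 bases before to 50 after each annotated start) were matched by symbol for 104 of the 119 genes, 39 cytosolic and 65 mitochondrial. Below are 30 bases around the start, 15 on each side, for some of the genes described further on. Capitals mark the longest run of C and T of at least 5 bases that reaches within 10 bases of the start.
Rps6 (chr4:86857353-86857382, minus strand): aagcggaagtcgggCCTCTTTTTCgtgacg
Rplp2 (chr7:141447636-141447665, plus strand): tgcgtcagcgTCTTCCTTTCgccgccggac
Rpl38 (chr11:114668565-114668594, plus strand): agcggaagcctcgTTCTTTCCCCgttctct
Rpl22l1 (chr3:28805493-28805522, plus strand): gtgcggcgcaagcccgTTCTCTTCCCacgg
Rpl22 (chr4:152324421-152324450, plus strand, 1 of 2 annotated starts): cgctgCTTCTggaatgttccagctcccact
Mrpl39 (chr16:84735230-84735259, minus strand): aaggaccgggacgccgagctaccttggcta
Mrps12 (chr7:28741807-28741836, minus strand): tcactaaggaggaaccccggaaggggctgg
Mrpl23 (chr7:142533017-142533046, plus strand): cggggttgggggtggggtggggtttgcggg
The first 4 genes are cytosolic and carry a run of 10 pyrimidines there, Rpl22 carries 5, and the 3 mitochondrial genes carry none of 5 or more. These windows do not stand for their whole class. Of other genes described further on, the mitochondrial Mrps33, Mrps21 and Mrpl52 carry runs of 10, 9 and 7. The cytosolic Rps3a1, Rpl41 and Rps28 carry none of 5 or more.

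A run of at least 7 pyrimidines reaching within 10 bases of an annotated start stood in 22 of 39 cytosolic genes (56.4%), 11 of 65 mitochondrial genes (16.9%) and 22.2% of all 27025 genes with a promoter. The 300 bases were also searched on both strands for 3 motifs common in promoters of housekeeping genes, counting matches whether or not they overlapped. ACTTCCG, the core of ETS-family sites, was found in 30.8% of cytosolic, 24.6% of mitochondrial and 7.20% of all genes. AAGATGGC, the YY1 motif, was found in 10.3%, 16.9% and 3.19%, and the NRF1 motif (with any base allowed at its centre) in 10.3%, 18.5% and 5.19%. A match is a description of the letters only, and genes with several annotated starts had more windows in which to match. Among cytosolic genes, the 22 with the pyrimidine run had a median of -0.06 for ECS and -0.12 for fluoxetine on the log2 scale, against -0.07 and -0.14 for the 17 without it. Among mitochondrial genes, the 11 with the run had medians of -0.02 and -0.05, and the 54 without it 0.05 and 0.06.

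Cytosolic ribosomal protein genes sat slightly below the middle of the transcriptome on both treated arrays, and mitochondrial ones did not. The median log2 ratio of the 45 cytosolic genes was -0.07 for ECS over sham, or 4.60% lower than the median probe set, and -0.13 for fluoxetine over vehicle, or 8.65% lower. Over the 74 mitochondrial genes the medians were 0.04 and 0.03. These positions are relative to the median probe set: scaled on the spike-in controls instead, the cytosolic medians were -0.01 and -0.05 and the mitochondrial ones 0.10 and 0.12, and without centring they were -0.16 and -0.01, and -0.06 and 0.15. The difference of medians, cytosolic minus mitochondrial, was -0.11 with ECS and -0.16 with fluoxetine, which corresponds to -7.26% and -10.6% and is the same under any constant scaling of an array. Between the 2 control pools, taken as sham over vehicle, it was 0.03 in size, and its sign depends only on which pool is put on top. ECS over sham and fluoxetine over vehicle share no array. The summed signal of 6 granule cell markers differed far more between the same arrays, at 7816.8 on sham, 3839.4 on ECS, 11476.3 on vehicle and 4798.5 on fluoxetine. This sum was carried by Calb1, Tdo2, Dsp and Lct. The markers Prox1 and Npnt, given further on, were less than 1.2-fold lower with ECS and were above 0 with fluoxetine. The part of the sum in the ribosomal shift was not tested, and in bulk tissue fewer cells of a type and less RNA per cell cannot be told apart.

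The shift was spread over most cytosolic genes rather than carried by a few. With ECS 34 of the 45 cytosolic genes lay below 0, where 49.9% of all genes did, and with fluoxetine 37 of 45 were below 0, where 50.5% of all genes did. Scaled on the spike-in controls, 26 and 29 of the 45 were below 0, where 41.3% and 38.3% of all genes were. Without centring 44 and 24 were, beside 64.2% and 33.1% of all genes. In both comparisons 28 of 45 were below 0, against 33.7% of all genes, and only Rplp0 and Rps27l were above 0 in both, against 33.3% of all genes. With 34 and 37 of 45 below 0 in the single comparisons, an overlap of about this size follows from those counts alone. It is therefore no further sign that the 2 treatments lowered the same cytosolic genes. For mitochondrial genes 31 of 74 were below 0 with each treatment, 19 in both, and 31 were above 0 in both. Spike-in scaling left 25 (ECS) and 18 (fluoxetine) of the 74 below 0, and no centring 47 and 15. Between the controls, 20 of 45 cytosolic genes had sham below vehicle, where 47.5% of all genes did. The 2 subunits had similar medians. Cytosolic large-subunit genes had medians of -0.07 with ECS and -0.13 with fluoxetine, and small-subunit genes -0.08 and -0.13. Mitochondrial large-subunit genes had medians of 0.03 and 0.03, and small-subunit genes 0.07 and 0.06.

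**Figure D1:**
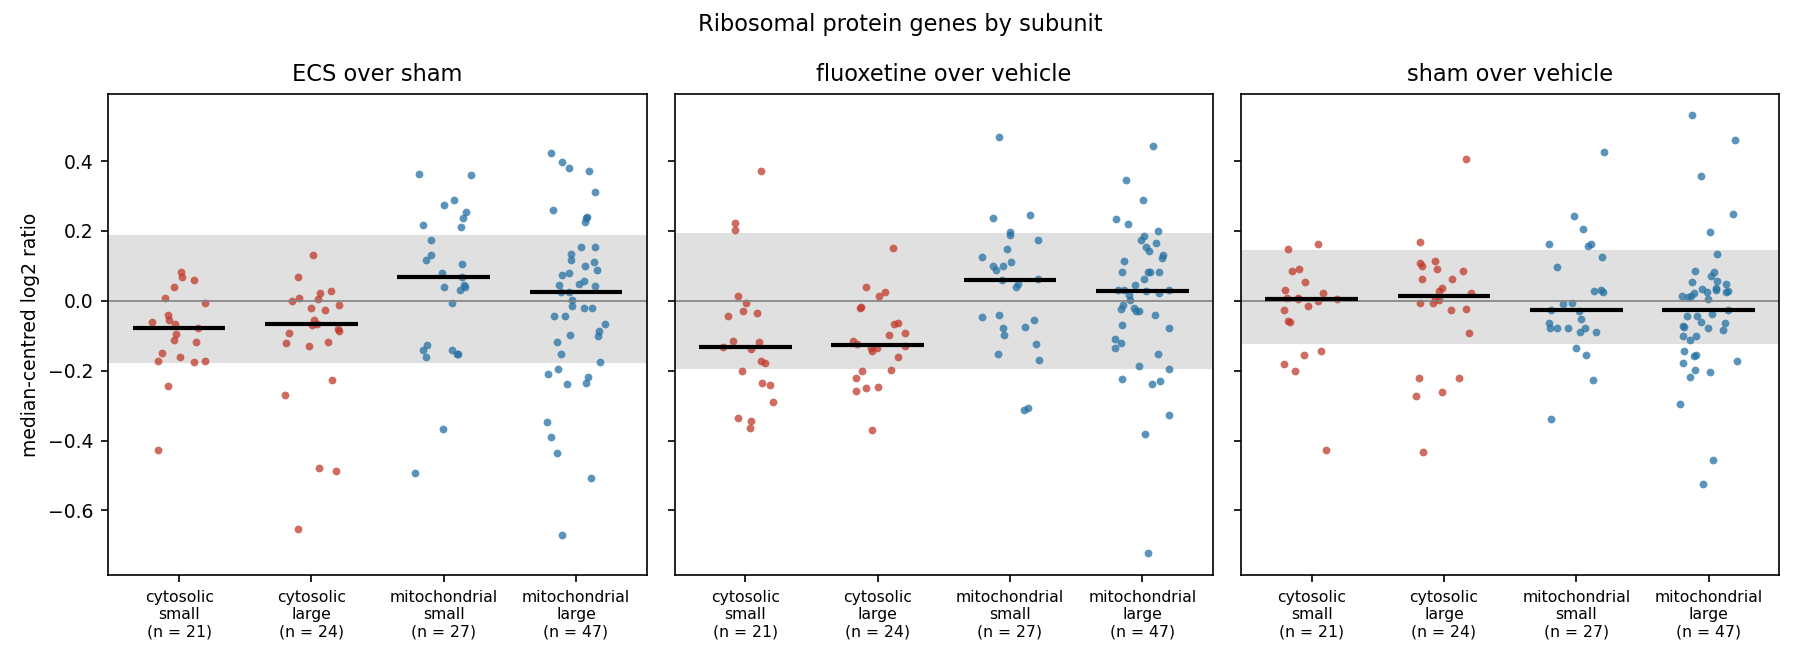
Median-centred log2 ratios (vertical axis) of ribosomal protein genes by ribosome and subunit for ECS over sham, fluoxetine over vehicle and sham over vehicle. Each point is 1 gene, black bars are medians, and the grey band holds the middle quartiles of all 7935 genes; both cytosolic groups have medians below 0 in the 2 treatment panels (-0.07 to -0.13) and near 0 in the control panel, and mitochondrial genes scatter on both sides.

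Few cytosolic genes differed by much. At least 1.2-fold, 0 cytosolic genes were higher and 5 were lower with ECS, against 17.6% higher and 17.2% lower among all genes (34.8% either way). With fluoxetine 1 was higher and 5 were lower, against 18.5% each way among all genes (37.0% either way). ECS left 9 mitochondrial genes higher and 7 lower, and fluoxetine 4 higher and 5 lower. Each of these counts is a smaller share of its class than the background, so the cytosolic shift consisted of many small ratios of the same sign. The split depended on the scaling: with spike-in scaling the ECS array had 0 cytosolic genes higher and 4 lower, the fluoxetine array 3 higher and 2 lower, and without centring these were 0 and 10, and 4 and 0. For mitochondrial genes spike-in scaling gave 17 higher and 7 lower (ECS) and 12 and 2 (fluoxetine), and no centring gave 6 and 13, and 18 and 1. All genes moved with the scaling too: spike-in scaling put 22.4% higher and 13.2% lower on the ECS array and 26.1% and 12.9% on the fluoxetine array, and no centring 11.7% and 26.1%, and 30.5% and 11.2%. The middle quartiles of the cytosolic genes lay between -0.15 and -0.00 with ECS and between -0.20 and -0.03 with fluoxetine, whereas those of all genes lay between -0.18 and 0.18 and between -0.19 and 0.19. Sham over vehicle had 1 cytosolic gene 1.2-fold higher and 3 lower, against 12.4% and 9.55% of all genes.

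Signal strength was examined because most cytosolic probe sets are among the brightest on the array. The 34 cytosolic genes with signals averaging 1000 or more had medians of -0.06 with ECS and -0.13 with fluoxetine. All 1497 genes that bright had medians of 0.04 and 0.01, and the 218 genes with signals averaging 4000 or more had 0.04 and -0.05. Both of these sets include cytosolic genes. Of the 218, 37.6% were below 0 with ECS and 62.8% with fluoxetine. The 11 cytosolic genes below 1000 had medians of -0.15 and -0.12, and a sham over vehicle median of -0.14. These 11 include Rps6, Rpl14, Rpl37, Rpl39 and Rps27, which were read here only by dim probe sets because 105 ribosomal probe sets listing several symbols were left out, 102 of them cytosolic. The 92 left-out cytosolic probe sets that pass the signal limit had medians of -0.09 and -0.18, with 73 and 81 of them below 0. Under centring that varied with signal, the 45 cytosolic genes had medians of -0.10 with ECS and -0.09 with fluoxetine. In that setting 39 and 33 of them were below 0, where 49.9% and 50.3% of all genes were.

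**Figure D2:**
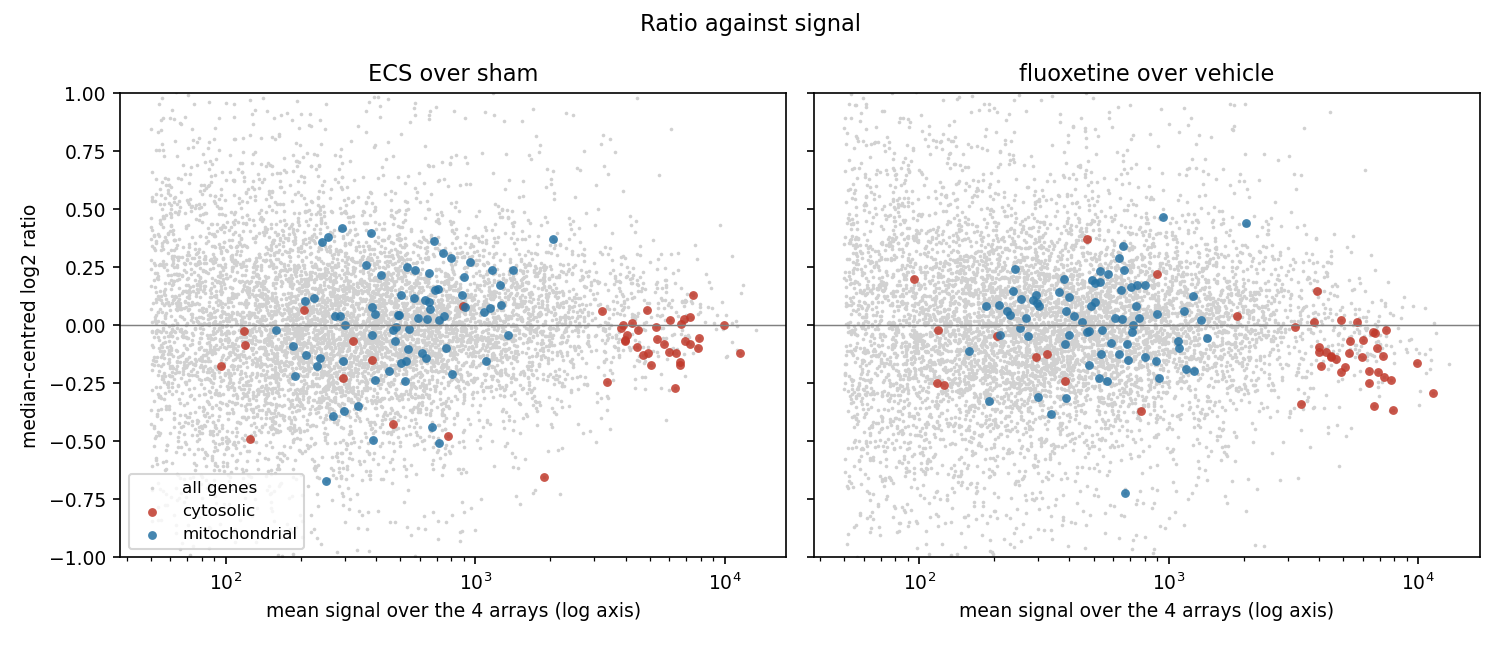
Median-centred log2 ratio (vertical axis) against mean signal over the 4 arrays (horizontal log axis) for ECS over sham and fluoxetine over vehicle, with all genes in grey, cytosolic genes in red and mitochondrial genes in blue; values beyond 1 in either direction lie outside the panels. Most cytosolic genes form a tight group at signals above 1000 just below 0, with medians of -0.06 and -0.13, while mitochondrial genes lie lower in signal with a wider scatter.

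Among cytosolic large-subunit genes, Rpl22 had the lowest ECS ratio. Rpl22 is a 60S protein that also binds other RNAs and restrains the expression of its paralogue Rpl22l1. Its signals were 1475.1 on the sham array, 878.5 on ECS, 2437.4 on vehicle and 2726.6 on fluoxetine. The ECS array was thus 1.57-fold lower than sham after centring (log2 ratio -0.65), while fluoxetine and vehicle were nearly equal (0.04). The difference of sham from vehicle was -0.22. A dimmer Rpl22 probe set gave -0.42 with ECS and -0.09 with fluoxetine, so both probe sets were lower on the ECS array than on sham and close to vehicle on the fluoxetine array. Rpl22 was the only cytosolic gene at least 1.5-fold lower or higher in either comparison, against 9.53% of all genes with ECS and 10.9% with fluoxetine. Rpl22l1 itself had signals of 3315.5, 3102.1, 4182.6 and 5049.7 in the same order of arrays, and its log2 ratios were -0.00 with ECS and 0.15 with fluoxetine. Its sham over vehicle ratio was 0.17, larger than either.

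Rpl37 and Rpl39 are small proteins of the 60S subunit, Rpl39 lying at the tunnel through which the new peptide leaves. Rpl37 was the only cytosolic gene at least 1.2-fold lower in both comparisons, where 8.17% of all genes were. Its signals were 596.7, 401.1, 1141.3 and 960.5 on the sham, ECS, vehicle and fluoxetine arrays, giving log2 ratios of -0.48 and -0.37. The 2 control pools differed by -0.43, between those 2 values in size. Rpl39 was read by a dim probe set at 134.9, 90, 144.3 and 131.3, with log2 ratios of -0.49 and -0.26 and a control difference of 0.41. For both genes, then, the treated array was the lower of its pair but the controls stood about as far apart.

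Rpl4, whose loop lines the exit tunnel, was read at 5656.2, 4389.6, 7859.2 and 7460, with log2 ratios of -0.27 and -0.20. The controls differed by 0.03 for Rpl4, so both treated pools were lower than both control pools after centring. Rpl38, needed for translation of Hox messages in embryos, had ratios of 0.00 and -0.16. Rpl41, the shortest ribosomal protein, had the highest ECS ratio of the cytosolic genes, 0.13, and -0.02 with fluoxetine; 2 of its 4 probe sets, with mean signals of 130 and 129, gave negative values in both comparisons, the lowest being -0.46 with ECS. Rpl14 was read only by a dim probe set, with ratios of -0.03 and -0.25 and a control difference of -0.27. The acidic stalk proteins, which recruit elongation factors to the ribosome, were close to the middle. Rplp0 stood at 0.07 on the ECS scale and 0.02 on the fluoxetine scale (log2 ratios), and Rplp2 had 0.03 and -0.10.

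Several bright small-subunit genes were lower with fluoxetine. Rps29, which had the highest signal of all members, was read at 10234.6, 8819.4, 14204.6 and 12645.6 on the sham, ECS, vehicle and fluoxetine arrays. Its log2 ratios were -0.12 with ECS and -0.29 with fluoxetine, and its controls differed by 0.03. The other 2 probe sets of Rps29 gave -0.29 and -0.04 with ECS, and -0.28 and -0.16 with fluoxetine, so all 3 were below 0 with both treatments. Rps28 was read at 6993.6, 6295.4, 9924.1 and 8395.7, with ratios of -0.06 and -0.36. Its other 2 probe sets gave -0.13 and -0.12 with fluoxetine, so the size of that difference depended on the probe set.

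Rps19 and Rps14, whose loss in blood cells causes forms of anaemia, were lower on both treated arrays. Rps19 was read at 2982.8, 2357.6, 4400.8 and 3792.2, with log2 ratios of -0.24 and -0.34 and a control difference of -0.06. Rps14 was read at 5872.6, 4880.7, 8473.6 and 7258.6, with ratios of -0.17 and -0.35 and a control difference of -0.03. Rps3a1 had ratios of -0.10 and -0.23, and Rps9, which lies at the mRNA entry channel, had 0.06 and -0.01. Rps6, the protein phosphorylated by S6 kinase downstream of mTOR, was read by a dim probe set at 311.3, 262.8, 500.3 and 460.8, with ratios of -0.15 and -0.24 and a control difference of -0.18.

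Among paralogues, Rps4l had ratios of opposite sign with the 2 treatments. This relative of Rps4x was read at 381.8 on sham, 265.8 on ECS, 510.7 on vehicle and 718.9 on fluoxetine. It was therefore lower with ECS (-0.43) and higher with fluoxetine (0.37), and was the only cytosolic gene at least 1.2-fold higher with either treatment. Changes of that size in opposite directions were found in 2.26% of all genes. Rps27l, a p53-inducible relative of Rps27, was read at 646.7, 640.8, 1013.2 and 1285.4, with ratios of 0.08 and 0.22. All 3 of its probe sets were above 0 with fluoxetine (0.22, 0.20 and 0.30). Rps27 itself was dim, at 62.4, 51.7, 118.9 and 148.8, with ratios of -0.18 and 0.20 and a control difference of -0.43, larger than either.

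**Figure D3:**
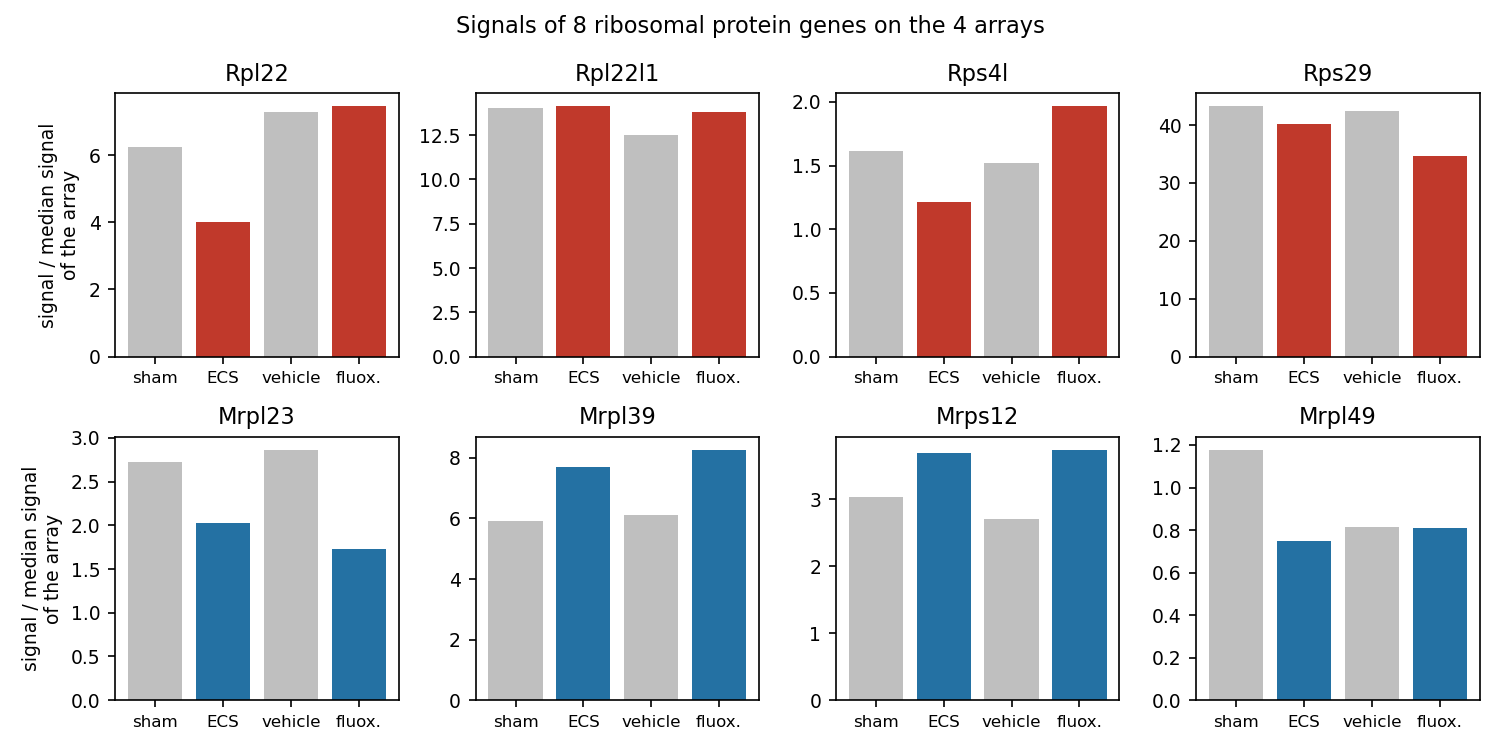
Signals of 8 ribosomal protein genes on the sham, ECS, vehicle and fluoxetine arrays, each divided by that array's median signal past the signal limit (vertical axes start at 0); grey bars are controls, red bars cytosolic genes and blue bars mitochondrial genes on treated arrays, and each bar is 1 array with no error. Rpl22 is low only on the ECS array, Rps4l is low with ECS and high with fluoxetine, Mrpl23 is low and Mrpl39 and Mrps12 are high on both treated arrays, and for Mrpl49 the sham array stands apart from the other 3.

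Mitochondrial genes scattered more widely than cytosolic ones and in both directions. Their middle quartiles lay between -0.14 and 0.16 with ECS and between -0.08 and 0.13 with fluoxetine. At least 1.2-fold, 4 were lower in both comparisons (8.17% of all genes were) and 2 were higher in both (9.19% of all genes were). Mrpl23, a large-subunit protein, had the lowest fluoxetine ratio of all members. It was read at 644.1, 445.4, 960.4 and 633.1 on the sham, ECS, vehicle and fluoxetine arrays. It was 1.65-fold lower with fluoxetine (log2 ratio -0.72), -0.44 with ECS, and its controls differed by -0.07. It was the only mitochondrial gene past 1.5-fold with fluoxetine.

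The others lower in both were Mrps28, Mrpl33 and Mrps9. Mrps28 was read at 347.5, 230.9, 520.2 and 456.2, with log2 ratios of -0.49 and -0.31. Mrps9 was read at 262.4, 190.4, 393 and 345.7, with ratios of -0.37 and -0.31; of its other 2 probe sets, 1 agreed on both (-0.46 and -0.40) and 1 only with fluoxetine (0.04 and -0.29). Mrpl33, whose ratios were -0.35 and -0.38, was read at 254.9, 187.6, 495.3 and 414.1, and its control pools differed by -0.45, more than either treatment.

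The 2 genes higher in both were Mrpl39 and Mrps12, whose start sites are shown above without a pyrimidine run. Mrpl39, the brightest mitochondrial member, was read at 1398.5, 1691.9, 2045.7 and 3024 on the sham, ECS, vehicle and fluoxetine arrays. Its log2 ratios were 0.37 with ECS and 0.44 with fluoxetine, and its second probe set gave 0.31 and 0.50. The controls differed by -0.04, so both treated pools were above both control pools. Mrps12, a protein of the decoding centre, was read at 716.7, 810.8, 908.5 and 1368.7, with ratios of 0.27 and 0.47 and a control difference of 0.16. Mrpl17 had ratios of 0.23 and 0.34, Mrpl34 0.40 and 0.20, and Mrps6 0.36 and 0.25.

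Some mitochondrial genes differed with ECS alone, mostly on 1 probe set. Mrpl49 was read at 278.7, 163.9, 273.6 and 295.4, a centred ECS ratio of -0.67, or 1.59-fold lower. Its controls differed by 0.53, and a second Mrpl49 probe set gave 0.01 with ECS. Mrpl52 was read at 691.6, 455.4, 824.8 and 880.3, with ratios of -0.51 and -0.03, while its other 2 probe sets gave 0.22 and -0.03 with ECS. Mrps21 was 0.36 with ECS and -0.08 with fluoxetine, and Mrpl13 was 0.24 and -0.19 with a control difference of -0.53. The other 2 probe sets of Mrpl13 had the opposite signs, -0.18 and 0.11 for the brighter and -0.31 and 0.22 for the dimmer. The bright members Mrps33 and Mrpl27 had ECS ratios of 0.24 and -0.04, and fluoxetine ratios of -0.06 and 0.02.

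**Figure D4:**
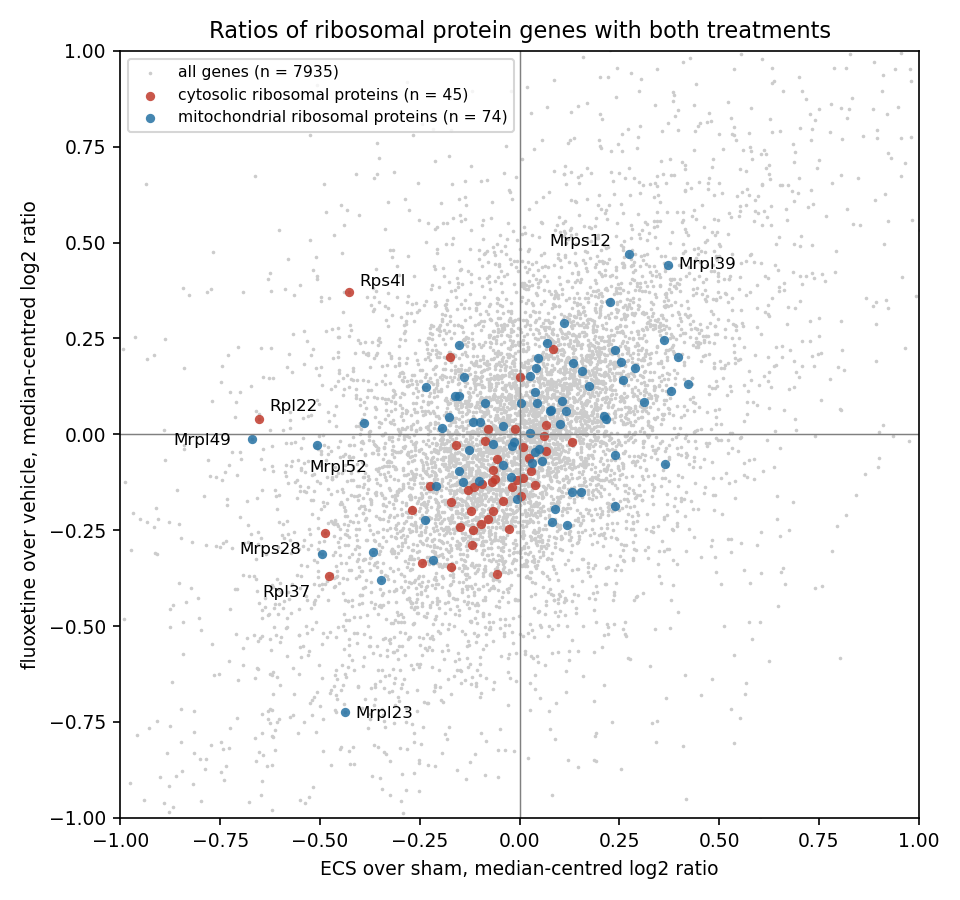
Median-centred log2 ratios of fluoxetine over vehicle (vertical axis) against ECS over sham (horizontal axis) for all genes (grey), cytosolic (red) and mitochondrial (blue) ribosomal protein genes; each point is 1 gene, and values beyond 1 are outside the panel. Cytosolic genes gather below and left of the origin (28 of 45 below 0 in both). Mitochondrial genes spread from Mrpl23 at the lower left to Mrpl39 at the upper right. Genes off the diagonal include the cytosolic Rps4l and Rpl22 and the mitochondrial Mrpl49 and Mrpl52.

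Across genes, the 2 sets of ratios had a Pearson correlation of 0.11 (Spearman 0.39) over 45 cytosolic genes, 0.51 (0.46) over 74 mitochondrial genes and 0.63 (0.49) over all 7935 genes. Genes are not independent replicates, the points within a comparison share its 2 arrays, and these values are descriptions only. Where a gene had several probe sets, the brightest and the next differed by a median of 0.05 in ECS ratio and 0.09 in fluoxetine ratio over 19 cytosolic genes. Over 25 mitochondrial genes they differed by 0.16 and 0.11, and over 2978 genes in all by 0.17 and 0.16. Ratios of cytosolic genes thus differed less in size between probe sets than those of mitochondrial genes, which were also dimmer. Their 2 probe sets had the same sign in 12 of 19 cytosolic genes with ECS and 13 with fluoxetine, against 67.2% and 71.0% of all genes. Over these 19 genes the brightest probe sets had medians of -0.08 and -0.13, and the next -0.04 and -0.09.

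A yardstick for each gene came from the scaled median absolute deviation of sham over vehicle log2 ratios among the 500 probe sets nearest to it in signal, which ranged from 0.11 to 0.33 over cytosolic genes. Past 2 such spreads, the ECS array had 4 cytosolic genes lower and 0 higher, and the fluoxetine array 8 lower and 1 higher. Of all genes, 8.34% were lower and 9.44% higher by this measure on the ECS array, and 10% and 10.7% on the fluoxetine array. Among mitochondrial genes the ECS array had 5 lower and 5 higher, and the fluoxetine array 2 lower and 3 higher. The signal limit itself bore on dim probe sets only: Rps24 (53.2), Rps20 (63.6) and Mrpl15 (71.5) had probe sets with mean signals just inside it, and other probe sets of Rps20 (49.8), Mrps9 (47.4) and Rps9 (44.9) lay just outside.

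Other genes of the translation machinery were read from lists of their own. Of 20 measured genes outside the symbol rule whose messages carry TOP tracts, 1 was 1.2-fold higher and 5 were lower after ECS, and 0 and 5 did so after fluoxetine, with medians of -0.05 and -0.09. Of all genes, 17.6% and 17.2% passed that fold after ECS and 18.5% each way after fluoxetine, which is the background for each list that follows. They included Gas5, a host of small nucleolar RNAs (2380.2, 1656.9, 3629.8 and 2696.8 on the sham, ECS, vehicle and fluoxetine arrays; log2 ratios -0.43 and -0.55). Eif4b, which helps the helicase eIF4A unwind messages, had -0.34 and -0.37, and Rpsa, a 40S protein whose symbol the rule leaves out, had -0.27 and -0.35. Fau, whose product is processed to a 40S protein and which the rule also leaves out, had -0.14 and -0.08. For Gas5, Eif4b and Rpsa the controls differed by -0.10, -0.03 and 0.02. The 33 initiation factors had medians of -0.04 and 0.00, with Eif1ax, which acts in start codon scanning, at 0.32 and 0.22 and the eIF3 subunit Eif3h at -0.23 and -0.29. The 11 elongation and release factors had medians of -0.00 and -0.00. Eef2k, the kinase that inhibits eEF2, had 0.15 and 0.41, the release factor Gspt1 -0.01 and 0.45, and the neuronal elongation factor Eef1a2 0.20 and 0.19.

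Ribosome assembly genes leaned lower with ECS. Of 58 measured, 2 were 1.2-fold higher and 16 were lower, beside the 17.6% and 17.2% above, with a median of -0.09; with fluoxetine 3 were higher and 5 were lower, and the median was -0.02. Nop14, a factor of small-subunit assembly, had -0.93 with ECS and 0.20 with fluoxetine, and Pno1, which also acts in small-subunit assembly, had 0.50 and 0.41. Nop14 was read at only 129.3, 63.4, 148.6 and 185.4. Rrp9, which binds the U3 small nucleolar RNA, had the highest ECS ratio of the list, 1.65, and -0.11 with fluoxetine. Its signals were 21.8, 64.2, 80 and 80.4, so the sham array alone was low and below 50, and the controls differed by -1.37. The 23 subunits and factors of RNA polymerases I and III, which make rRNA and tRNA, had medians of -0.09 and -0.07, with 1 higher and 3 lower after ECS, then 3 and 6 after fluoxetine. Taf1d, a polymerase I factor, had -0.91 and -0.31, and the polymerase III subunits Polr3f and Polr3k had -0.68 and -0.37, and 0.66 and 0.20. Taf1d was dim, at 112.7, 56.2, 138.6 and 121.4, and the controls differed by -0.46 for Polr3k. The 19 genes of mTOR and S6 kinase signalling had medians of -0.11 and -0.03, among them Pdcd4, an S6 kinase substrate that restrains eIF4A, at -0.29 and -0.48. Mlst8, a subunit of both mTOR complexes, had -0.89 and 0.01 with a control difference of 0.76. Myc, a transcription factor that promotes ribosome production, had 0.78 and -0.31 and was dim, at 42, 67.6, 60.3 and 53.1.

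The partners of mitochondrial ribosomes did not share one direction. Over 25 genes of mitochondrial translation and ribosome assembly the medians were -0.07 and -0.03, with 0 higher and 4 lower after ECS, then 3 and 7 after fluoxetine. Pars2 and Tars2, the mitochondrial prolyl- and threonyl-tRNA synthetases, had ratios of -0.37 and -0.73, and of -0.58 and -0.27. Tfb2m, a mitochondrial transcription factor, had -0.27 and -0.44. The 4 mitochondrial ribosomal proteins outside the symbol rule had medians of -0.11 and -0.21, among them Gadd45gip1 (-0.27 and -0.25), Dap3 (-0.06 and -0.27) and Chchd1 (-0.03 and -0.17). Nuclear genes of oxidative phosphorylation (49) had medians of 0.07 and 0.00, and the 31 proteasome genes had 0.12 and 0.12. With ECS 3 oxidative phosphorylation genes and 3 proteasome genes were 1.2-fold higher and 0 of either were lower. On the fluoxetine array 5 and 3 were higher and 0 and 1 lower, and these shares too are below the background of all genes. Of the respiratory genes, the ATP synthase subunits Atp5o and Atp5g1 had 0.27 and 0.33, and 0.20 and 0.34, and the electron carrier Cycs had 0.24 and 0.32. Of the proteasome genes, Psmb7 had 0.60 and -0.49, Psmc4 0.36 and 0.43, and Psma5 0.21 and 0.43.

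Cell makeup and RNA quality were read from the same arrays. The granule cell marker sums given above had centred log2 ratios of -0.93 (ECS over sham) and -1.38 (fluoxetine over vehicle). They were carried by Calb1 (-1.35 and -2.12), Tdo2 (-2.29 and -3.40), Dsp (-0.61 and -1.38) and Lct (-0.50 and -1.22). Prox1, the transcription factor that marks granule cells at all ages, had -0.10 and 0.10, and Npnt had -0.19 and 0.41. Sums of markers of other cells had 0.55 and 0.37 for CA1 and CA3 pyramidal cells (4 genes), 0.24 and 0.24 for interneurons, 0.29 and 0.13 for immature granule cells, and 0.01 and 0.08 for astrocytes. They were -0.04 and 0.32 for microglia, 0.08 and 0.05 for oligodendrocytes and 0.22 and 0.05 for endothelial cells, while the 1 choroid plexus gene measured had -0.29 and -0.89 and no red blood cell gene was measured under these rules. The pyramidal cell sum was carried by Bok (0.92 and 0.73); Wfs1 had -0.29 and -0.26, Iyd 0.31 and -0.30 and Man1a 0.31 and 0.16, and the median of the 4 was 0.31 with ECS and -0.05 with fluoxetine. Bright genes weigh most in a sum, and medians over single markers differed from it. They were 0.36 and 0.19 for interneurons, 0.71 and 0.38 for immature granule cells, and 0.11 and 0.11 for astrocytes. For microglia they were -0.04 and 0.32, for oligodendrocytes 0.05 and 0.11, and for endothelial cells 0.20 and -0.06. Single astrocyte markers ranged from -0.54 to 2.34 with ECS and from -0.21 to 2.30 with fluoxetine. The part of these sums and medians in the ribosomal values was not tested. The 3′/5′ signal ratio of Actb was 1.47 to 1.59 over the 4 arrays and that of Gapdh 0.736 to 0.769. Both treated arrays were below both control arrays for either gene. The 3′/5′ ratio of 18S rRNA went the other way, at 0.529 on sham, 0.556 on ECS, 0.567 on vehicle and 0.598 on fluoxetine, so each treated array was above its own control. The part of these differences in the ribosomal values was not tested.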

How the data were processed

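RNA of DG dissected from hippocampal slices was pooled per group, amplified with the 3′IVT Express kit and hybridized to GeneChip mouse genome 430A 2.0 arrays, 1 array for each of the 4 groups. The authors deposited MAS5 signal intensities from microarray suite 5.0, with no scaling target given in the sources used here. The arrays had not been scaled to each other: trimmed means were 261, 250, 374 and 414 on the sham, ECS, vehicle and fluoxetine arrays. Of 22690 probe sets, 64 were controls and were left out, and those with a mean signal of at least 50 were kept, as in the methods of the study. MAS5 takes mismatch probes as background and its log ratios scatter widely at low signal.

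From these intensities, log2 ratios were centred on their median over the probe sets kept, and the brightest probe set listing a single symbol stood for a gene. Symbols came from the platform annotation; all 119 members matched RefSeq gene identifiers and 0 had another current symbol. No test was run, since each group is 1 pooled array; genes were counted past 1.2-fold and 1.5-fold, and the number of arrays limits the precision. Named genes were the brightest, those with the highest and lowest mean of both ratios, and those with the largest difference between the comparisons. All past 1.5-fold, the stalk genes, paralogues, Rps6 and members next to the signal limit were named too. Of each other list, up to 3 genes with the largest mean absolute ratio were named, and of granule and pyramidal cell markers all those measured. Members, lists and this rule were chosen with earlier results of these data known. Alternatives changed the centring, the filter, the treatment of low signals, the probe set per gene, the control array, the members and the fold; 2 were added after seeing the data. Steps were tested on simulated data with planted class shifts larger than the class medians reported here. Recovery of shifts as small as those medians was not tested. Python 3.11.15, pandas 2.3.3, numpy 2.4.6 and statsmodels 0.14.6 were used.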

Additional observations from a re-analysis of the deposited data

Results flagged for a closer look

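Rps4l differed in direction between the 2 treatments: its centred log2 ratio was -0.43 for ECS over sham and 0.37 for fluoxetine over vehicle, and the ECS value minus the fluoxetine value was -0.80. With 1 array per group the difference was not tested. Rps4l was the only 1 of the 119 members at least 1.2-fold changed in opposite directions, where 2.26% of all genes were, so the members show no excess of such genes. The sham and vehicle pools differed by 0.08 for this gene, and it was read by a probe set with a mean signal of 469.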

How the results depend on the processing

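The median of the cytosolic genes was below that of the mitochondrial genes under each of 18 alternatives, by -0.14 to -0.09 with ECS and by -0.17 to -0.11 with fluoxetine. Several of these could not change that difference. No centring, own-median centring, trimmed mean scaling and spike-in scaling shift both medians alike, and a limit of 50 on every array kept the same genes. The cytosolic median was below 0 under each of the 18 alternatives, from -0.16 to -0.01 for both treatments. With fluoxetine the cytosolic median was -0.0087 without centring, where the mitochondrial median was 0.15. The mitochondrial ECS median was below 0 only without centring (-0.06). Counts past 1.2-fold moved by over 1.5 times in several settings. The 5 cytosolic genes counted with ECS became 10 without centring, 8 without the signal filter, 8 with the dimmest probe set, 9 with exchanged controls (ECS over vehicle, fluoxetine over sham) and 2 without cytosolic genes below a mean signal of 1000, an alternative chosen after seeing the data. The 6 with fluoxetine became 10 with trimmed mean scaling, 10 with the dimmest probe set and 12 with exchanged controls. The 9 mitochondrial genes with fluoxetine became 19 without centring, 14 with spike-in scaling and 16 with exchanged controls. The shares of all genes moved too, those without centring and with spike-in scaling being given above. With ECS, 25.7% of all genes were higher and 24.0% lower without the filter, and 19.5% and 18.7% with the dimmest probe set. With fluoxetine these were 16.4% and 20.8% with trimmed mean scaling, and 19.9% each way with the dimmest probe set. Exchanged controls gave 20.9% and 19.2% with ECS, and 19.8% and 23.0% with fluoxetine. At 1.5-fold the counts were 1 cytosolic and 1 mitochondrial gene with ECS, and 0 and 1 with fluoxetine. Of all genes, 9.53% and 10.9% passed that fold. Of 70 ratios of named genes, 28 changed sign under 1 or more alternatives (69 values in all), 3 of them ratios that were at least 1.2-fold: Mrpl33 and Rpl37 with fluoxetine were 0.071 and 0.058 over sham, and the dimmest Mrpl49 probe set gave 0.0074 with ECS. The cause of these shifts was not tested. Of 1158 values of named genes under alternatives, 1063 shifted from the main value by no more than the spread of sham over vehicle ratios in their class. That spread, a scaled median absolute deviation, was 0.10 for cytosolic and 0.11 for mitochondrial genes. It is larger in size than the cytosolic ECS median of -0.07. Alternatives that changed only the members or the filter could hardly move a named gene. No paired analysis was possible because each group is 1 pooled array, and no array could be left out for the same reason. Dim probe sets are limited by signal over background, which MAS5 values alone do not give.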
